A study of Mus musculus with 11 samples.

Results

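The 40 genes described here encode the machinery that copies DNA in S phase. They were chosen by their role in replication, by symbol, and all 40 were found among the 43346 genes of the deposited count table. All 40 also passed the filter on low counts that left 17610 genes for testing. Bulk RNA was sequenced from the livers of FVB/NJ mice carrying hepatocellular carcinoma (HCC, the main cancer of hepatocytes) that had been induced by expressing MET and β-catenin. The labels put 6 livers in a responder group and 4 in a non-responder group, both given anti-PD-1, an antibody that blocks the PD-1 checkpoint receptor of T cells. The eleventh liver carries the response label "non treatment", although its treatment field also reads anti-PD-1, and it is called the no-treatment liver below. All 11 livers share the strain and the MET and β-catenin tumours, and no tumour-free liver is among them.

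The labels give no age, no dose and no promoter for the transgenes, and do not say whether tumour was separated from surrounding liver. They do not state that each library came from a separate mouse, so the spread behind each p-value may be technical. Libraries held 17876515 to 40565708 gene counts in responders, 25542066 to 39941835 in non-responders and 49884800 in the no-treatment liver. Levels are given as CPM, counts brought to a common library total with edgeR's TMM factors. Hepatocyte markers (9 of 10 found, among them Alb and Apoa1) summed to between 81478 and 96846 CPM in responders and between 109166 and 124881 CPM in non-responders, as in liver tissue. Their genes did not move one way: of 9 tested, Apoa1 was called lower in responders (-1.11) and Cps1 and Serpina1a higher (1.59 and 1.01), 6 were above 0, and Alb gave -0.60 without passing. In non-responder replicate 1 the reads were shifted to the later exons of transcripts: the median ratio of read density between the later and the earlier exons of the 40 genes was 2.55 there and 0.981 to 1.2 in the other libraries. Without that library, 2 of the 40 genes were called lower in responders (Orc6 and Chaf1a), against 1 with it. Of all genes tested, 5.01% were called lower without that library and 5.82% with it.

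Replication begins when the origin recognition complex, Cdc6 and Cdt1 load rings of Mcm2 to Mcm7 onto DNA in G1. In S phase Cdc45 and the GINS complex join the ring and turn it into the active helicase, polymerases alpha, delta and epsilon copy the strands, and the Pcna clamp, its Rfc loader, Fen1 and Lig1 hold the polymerases and seal the lagging strand. Most hepatocytes of an adult liver are out of the cell cycle and transcribe these genes little, and dividing tumour and immune cells transcribe them more. In bulk tissue, fewer cycling cells and less RNA of these genes per cell cannot be told apart.

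E2F factors, which the retinoblastoma protein restrains, are the textbook regulators of these genes, and their binding sequence is shown first because the genes were chosen by role and not by their promoters. Promoters (250 bases before to 50 bases after the start site, RefSeq, build GRCm38.p6, which corresponds to mm10) were matched for 32 of the 40 genes. Both strands were searched for 4 E2F forms, TTTCCCGC, TTTGGCGC, TTTCGCGC and TTTGCCGC, which can overlap each other on opposite strands. At least 1 form was found in 13 of the 32 promoters (40.6%), against 2.32% of 27025 promoters of all genes and 3.77% of 11200 promoters of genes tested. Mitosis genes differed: 1 of their 17 promoters (5.88%) held an E2F form, while 11 (64.7%) held TTTGAA, the core of the CHR element of late cell cycle genes. That element was found in 4 of the 32 replication promoters (12.5%) and in 12.6% of the promoters of genes tested. A match is a description of the letters, not a bound site.

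Below are 30-base windows around the match for the 8 genes with the smallest p in the comparison of responders with non-responders among those 13 genes, each 5′ to 3′ on the gene's own strand with the E2F forms in capitals. They lie at chr1:20820265-20820294 (minus strand) for Mcm3, chr8:122568035-122568064 (plus) for Cdt1, chr8:75109347-75109376 (plus) for Mcm5 and chr5:151651195-151651224 (minus) for Rfc3. Those of the other 4 lie at chr4:126556990-126557019 (plus) for Clspn, chr5:138172030-138172059 (minus) for Mcm7, chr1:128359795-128359824 (minus) for Mcm6 and chr4:108579416-108579445 (plus) for Orc1.
Mcm3: gGCGGGAAAacttgggaagtTTTGGCGCca
Cdt1: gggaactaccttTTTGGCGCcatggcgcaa
Mcm5: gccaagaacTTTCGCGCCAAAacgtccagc
Rfc3: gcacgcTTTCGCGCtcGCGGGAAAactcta
Clspn: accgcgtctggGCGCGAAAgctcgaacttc
Mcm7: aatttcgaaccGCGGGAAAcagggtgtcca
Mcm6: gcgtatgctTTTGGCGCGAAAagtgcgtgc
Orc1: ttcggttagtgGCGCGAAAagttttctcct

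Of these, Mcm3, Mcm5, Rfc3 and Mcm6 held 2 forms within the window. In Mcm5 and Mcm6 the forms overlapped on opposite strands. The whole stretch of 250 bases before the start site of Mcm5, a subunit of the helicase ring, is shown with its 2 overlapping forms in capitals to give their setting (chr8:75109259-75109508, plus strand).
Mcm5: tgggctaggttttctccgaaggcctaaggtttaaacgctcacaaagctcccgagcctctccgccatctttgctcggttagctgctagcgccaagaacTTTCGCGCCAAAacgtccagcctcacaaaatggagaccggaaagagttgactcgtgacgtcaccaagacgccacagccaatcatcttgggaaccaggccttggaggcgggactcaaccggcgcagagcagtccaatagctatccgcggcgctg

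Mean levels of most of these genes were lower in responders than in non-responders, but few of the differences exceeded the spread between libraries. The log2 fold change of responders over non-responders was below 0 for 34 of the 40 genes (85%), against 51.9% of all genes tested. Its median was -0.41, against -0.016 over all genes tested, and it ran from -1.45 for Uhrf1 to 1.59 for Mcm10. With edgeR's quasi-likelihood test and an adjusted p threshold of 0.05, 1 of the 40 genes was lower (2.5%, Chaf1a) and 0 were higher, against backgrounds of 5.82% of all genes tested lower and 4.11% higher. The share called lower was thus no larger than the background. At an unadjusted p under 0.05, 9 were lower (22.5%, background 14.9%) and 1 was higher (2.5%, Mcm10, background 12.3%). In simulated counts for the same 17610 genes and library sizes, the test recovered 2 of 67 genes that had been given a difference of 1.5-fold. It recovered 31 of 67 at 2-fold and 60 of 66 at 4-fold. Differences were given only to genes above a set mean level, and each gene was drawn on its own. Shifts that many genes share in 1 library were thus not simulated, and these rates may not hold for the real libraries.

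The sample titles carry a number. It is 26, 30, 32 and 37 in the non-responders and 1, 3, 9, 13, 16 and 29 in the responders. The no-treatment liver has 11. With that number as a covariate the median of the 40 genes was 0.00836, 18 of them were below 0 and 0 were called, and over all genes tested 0 were called higher and 1 lower. What the number stands for is not given in the labels, and the 2 groups overlap in it only through responder replicate 6 and non-responder replicate 1. With so little overlap the covariate takes up much of the difference between the groups. The fit therefore cannot tell the response group and the title number apart.

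**Figure D1:**
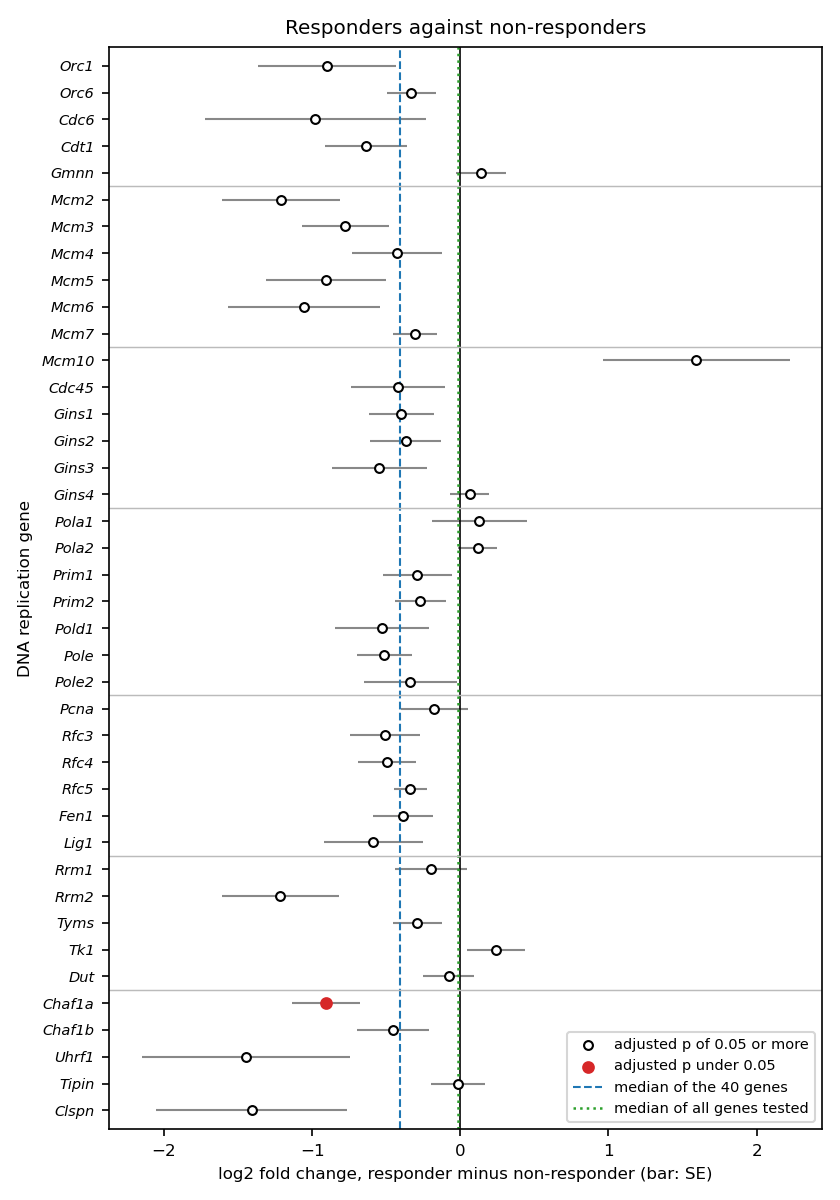
Log2 fold change of responders over non-responders (x axis) for the 40 replication genes, ordered by role, with bars of 1 SE; filled red marks an adjusted p under 0.05. Chaf1a alone is filled, 34 genes lie left of 0, and the dashed median of the 40 genes (-0.41) lies left of the dotted median of all genes tested (-0.016).

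Helicase loading was represented by 5 genes, of which 0 passed the test and 4 had a log2 fold change below 0 (median -0.64). Cdt1, which brings the Mcm ring to the origin, measured 2.22 to 5.25 CPM in responders (median 3.63) and 7.79, 4.08, 7.75 and 4.29 CPM in non-responders. The groups overlapped, with replicates 1 and 3 of the non-responders above every responder (log2 fold change -0.64 ± 0.28 (SE), edgeR adjusted p = 0.162). Orc1, an ATP-binding subunit of the origin recognition complex, lay between 0.161 and 1.14 CPM in responders (median 0.363). In non-responders it lay at 0.443, 0.871, 1.26 and 0.998 CPM. Responder replicate 6, at 1.14 CPM, stood well above the next responder (0.499 CPM), and the log2 fold change was -0.90 ± 0.47 (SE), short of the threshold (edgeR adjusted p = 0.241). Without that library it was -1.40 and passed (edgeR adjusted p = 0.0442). This was 1 of 10 fits that left out 1 library, and Orc1 passed in no other (highest edgeR adjusted p = 0.414).

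Cdc6, which works with Orc1 in ring loading, had 0 reads in responder replicate 1, where 3 counts would be 0.121 CPM. The other 5 responders had 0.202 to 2.53 CPM and the non-responders 1.59, 1.17, 3.64 and 1.22 CPM, so the groups overlapped (edgeR adjusted p = 0.429). Orc6, another subunit of the recognition complex, was among the steadiest members in responders (3.10 to 3.83 CPM) and read 3.14, 4.79, 4.8 and 5.14 CPM in non-responders. Its log2 fold change was -0.33 (edgeR adjusted p = 0.222). Leaving out non-responder replicate 1 made it -0.47, which passed (edgeR adjusted p = 0.0433). Orc6 passed in only this 1 of the 10 fits that left out 1 library (highest edgeR adjusted p = 0.412). Gmnn, the inhibitor of Cdt1, was the loading gene with a value above 0 (0.14 ± 0.17 (SE), edgeR adjusted p = 0.641).

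All 6 subunits of the helicase ring had lower mean levels in responders, with a median log2 fold change of -0.84, and 0 passed the test. Mcm2 measured 2.62 to 14.8 CPM in responders (median 7.44) and 15.7, 15.9, 26.2 and 15.8 CPM in non-responders. Every responder was below every non-responder, with responder replicate 6 closest, and the difference of -1.21 ± 0.40 (SE) missed the threshold (edgeR adjusted p = 0.0759). Of the 10 fits that left out 1 library, Mcm2 passed in 1, the fit without responder replicate 6 (-1.48, edgeR adjusted p = 0.0323). The highest edgeR adjusted p over those fits was 0.164. Such a full separation was seen for 2 of the 40 genes in this direction (5%, Mcm2 and Chaf1a), at the background of 5.66% of all genes tested.

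Mcm6 spread widest within the ring, from 1.37 to 10.6 CPM in responders (median 5.34), and measured 6.61, 7.94, 20.1 and 10.7 CPM in non-responders. Responder replicates 3, 4 and 6 lay within the range of the non-responders and replicates 1, 2 and 5 below it (-1.06 ± 0.51 (SE), edgeR adjusted p = 0.211). Mcm3 and Mcm5 gave -0.77 ± 0.29 and -0.91 ± 0.40 (SE), with edgeR adjusted p of 0.109 and 0.173. Mcm4 gave -0.42 and Mcm7 -0.30, and in both the groups overlapped. Mcm7 had the highest level per length of the 6 in responders, 4.19 CPM per kb of listed length, and Mcm2 the highest in non-responders, 5.46 CPM per kb.

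Summed over the 6 subunits, the level was 29.2, 36.0, 68.0, 65.7, 52.3 and 78.0 CPM in responder replicates 1 to 6 and 72.0, 72.6, 132 and 84.8 CPM in non-responder replicates 1 to 4. Responder replicates 1 and 2 lay near the no-treatment liver, at 30.04 CPM, and responder replicate 6 lay within the range of the non-responders.

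**Figure D2:**
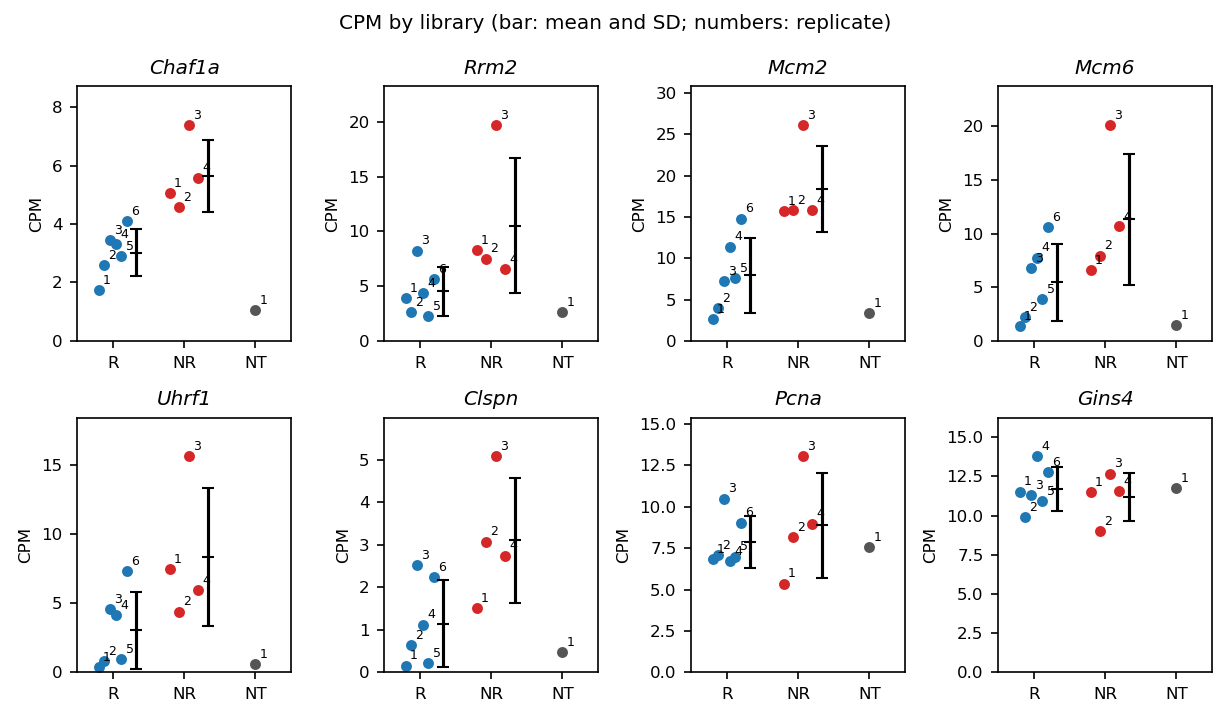
CPM (y axis) of 8 replication genes in each library, with responders (R), non-responders (NR) and the no-treatment liver (NT) along the x axis; points carry the replicate number and bars show mean and SD. Chaf1a and Mcm2 do not overlap between the treated groups, while Pcna and Gins4 do; non-responder replicate 3 is the highest point in the first 7 panels.

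Helicase activation held 6 genes, of which 0 passed, 4 were below 0 and 2 above (median -0.38). Mcm10, which binds the loaded helicase and helps to activate it, went against most of the machinery in its deposited gene count. It measured 87.5 to 164 CPM in responders (median 113) and 9.56, 6.34, 71.6 and 69.6 CPM in non-responders. Every responder was above every non-responder, as was so for 1 of the 40 genes (2.5%) and 5.6% of all genes tested, and non-responder replicates 1 and 2 were far below the other 2. The log2 fold change was 1.59 ± 0.63 (SE), edgeR adjusted p = 0.132. Per length it had the highest level of the 40 genes in responders, 15.4 ± 3.30 CPM per kb (SD, n = 6), above Gins4 at 8.58 ± 1.01 (SD, n = 6).

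The exons of Mcm10 did not share that level. The gene lies at chr2:4989714-5012791 (mm10, minus strand), and no exon of the transcript examined shares a base with another gene. Its first 8 of 20 exons (chr2:5004008-5012344, 1679 exon bases) held 203 reads in all responders and 198 in all non-responders, or 1.01 ± 0.27 CPM (SD, n = 6) and 1.31 ± 0.89 CPM (SD, n = 4). The last 12 exons (chr2:4989714-5001380, 3188 exon bases) held 25446 and 6776 reads, or 135 ± 28.7 CPM (SD, n = 6) and 43.8 ± 40.8 CPM (SD, n = 4). Per kb of exon this was 0.603 and 0.781 CPM in the first 8 exons, and 42.4 and 13.7 CPM in the last 12. Read density stepped up between exon 8 and exon 9 in the 6 responders, in non-responder replicates 3 and 4 and in the no-treatment liver. In the mean of responders it went from 0.686 to 14.7 CPM per kb, and it was highest at exon 19 (202 CPM per kb). Non-responder replicates 1 and 2 showed no such step, with 0 and 0.648 CPM per kb in exon 8 and 0.947 and 0.698 in exon 9. Their density was higher from exon 15 on (2.55 and 2.63 CPM per kb) and reached 12.9 and 12.0 CPM per kb at exon 19. In the last 12 exons, non-responder replicates 1 to 4 had 10.2, 6.83, 80.5 and 77.7 CPM and the no-treatment liver 179 CPM.

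Counted over its first 8 exons in the same fit, Mcm10 measured -0.37 as log2 fold change (edgeR adjusted p = 0.590). This count was chosen after the exon values were seen. The direction of the deposited gene count therefore rests on reads of the last 12 exons, and the cause of the higher density there was not tested.

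**Figure D3:**
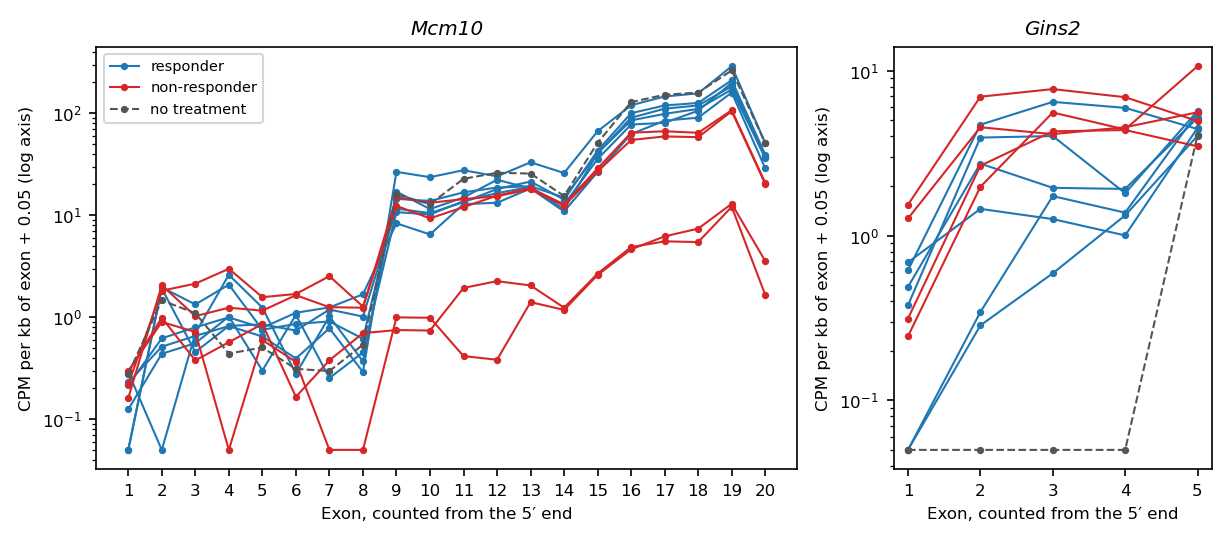
Read density (y axis, CPM per kb of exon + 0.05, log scale) along the exons of Mcm10 and Gins2, numbered from the 5′ end (x axis), with 1 line per library. In Mcm10, 9 libraries step up between exons 8 and 9, and non-responder replicates 1 and 2 do not and stay below the others from there on; in Gins2 the no-treatment liver has 0 reads in exons 1 to 4 and a level like the other libraries in exon 5.

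Cdc45 read 1.09 to 3.05 CPM in responders and 2.25, 1.93, 4.21 and 2.2 CPM in non-responders (-0.42 ± 0.32 (SE), edgeR adjusted p = 0.422). Of the 4 GINS subunits, Gins1 and Gins3 gave -0.40 and -0.55, Gins4 gave 0.06, and 0 passed. Gins4 measured 11.7 ± 1.38 CPM in responders (SD, n = 6) and 11.2 ± 1.54 CPM in non-responders (SD, n = 4), a difference smaller than either SD (0.06 ± 0.13 (SE) on the log2 scale).

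Gins2 also needs its exons read apart. Of its exon bases, 70.7% are shared with Gse1, and exon 5 held 92.7% of its exon reads. Exons 1 to 4, which share no base, measured 0.243 to 2.14 CPM in responders (median 0.774) and 1.40, 1.96, 3.0 and 1.37 CPM in non-responders. Responder replicate 4 lay within the non-responder range and the other responders lay below it. The no-treatment liver had 0 reads there, which allows up to 0.0614 CPM (3 counts), and had 12.8 CPM in exon 5. The deposited Gins2 count (-0.37, edgeR adjusted p = 0.354) is therefore uncertain as a level of this gene.

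Polymerases and primase gave 7 genes, 0 past the test, 5 below 0 and 2 above (median -0.29). Pole, the catalytic subunit of the leading-strand polymerase epsilon, measured 4.8 to 7.91 CPM in responders (median 6.32) and 9.75, 7.32, 11.6 and 7.69 CPM in non-responders. Responder replicates 3 and 6 overlapped the lower non-responders (-0.51 ± 0.18 (SE), edgeR adjusted p = 0.0978). Pold1, the catalytic subunit of polymerase delta, gave -0.53, and -0.18 without non-responder replicate 1, which stood at 10.04 CPM. Pole2, the second subunit of polymerase epsilon, gave -0.34.

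The polymerase alpha and primase complex lays down the primers. Its genes Pola1 and Pola2 gave 0.13 ± 0.32 and 0.12 ± 0.13 (SE), and Prim1 and Prim2 gave -0.29 and -0.27. Pola1, a gene of the X chromosome, ranged from 5.90 to 10.2 CPM in responders and read 2.81, 4.79, 11.7 and 8.39 CPM in non-responders, so that non-responder replicates 1 and 2 were below every responder.

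The clamp, its loader and the enzymes that finish the lagging strand were below 0 in all 6 cases (median -0.44), and 0 passed. Rfc5, a small subunit of the clamp loader, measured 14.9 to 19 CPM in responders (median 16.9) and 25.3, 18.9, 19.4 and 20.6 CPM in non-responders. The groups met only at responder replicate 6 and non-responder replicate 2 (-0.34 ± 0.11 (SE), edgeR adjusted p = 0.0811). Counted over the exons that share no base with Wsb2, Rfc5 gave 0.17, and 72.0% of its exon reads lie in the last exon, the shared one. Its deposited value is thus uncertain.

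Rfc4 and Rfc3 gave -0.49 ± 0.19 and -0.51 ± 0.23 (SE), with edgeR adjusted p of 0.123 and 0.185. Pcna, the sliding clamp, had 6.70 to 10.5 CPM in responders and 5.35, 8.16, 13 and 8.98 CPM in non-responders, of which replicates 1 and 3 span the range of all treated libraries (-0.18 ± 0.23 (SE), edgeR adjusted p = 0.660). Fen1, the nuclease that trims the flaps of lagging-strand fragments, gave -0.39, but 83.9% of its exon bases are shared with Tmem258 and Gm10143, so reads of these genes cannot be kept apart where strand was not used. Lig1, which joins the fragments, gave -0.59 ± 0.33 (SE), with responder replicate 3 (10.6 CPM) above 3 of the 4 non-responders.

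Among 5 genes of nucleotide supply, 0 passed, 4 were below 0 and 1 above (median -0.20). Rrm2, the S-phase subunit of ribonucleotide reductase that makes deoxynucleotides, measured 2.27 to 8.24 CPM in responders (median 4.15) and 8.27, 7.51, 19.7 and 6.56 CPM in non-responders. Only responder replicate 3 reached the non-responder range. The log2 fold change was -1.21 ± 0.40 (SE), edgeR adjusted p = 0.0723, and it passed without responder replicate 3 (-1.48, edgeR adjusted p = 0.0457). Without non-responder replicate 3 it was -0.71 (edgeR adjusted p = 0.209). Rrm2 passed in 1 of the 10 fits that left out 1 library. Its partner subunit Rrm1, which is more stable through the cycle, gave -0.20 ± 0.24 (SE).

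Tk1, the thymidine salvage kinase, had 23.7 to 33.5 CPM in responders and 35.3, 17.0, 26.4 and 20.7 CPM in non-responders (0.24 ± 0.19 (SE), edgeR adjusted p = 0.452). It was the 1 gene of the 40 that was highest of all in the no-treatment liver (37.8 CPM). Tyms, which makes thymidylate, gave -0.29, and Dut, which removes dUTP, gave -0.08.

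Chromatin assembly and fork protection had the most negative median of the 7 role groups (-0.90), with 5 of 5 genes below 0 and 1 past the test. Chaf1a (chr17:56040416-56068026, mm10), the large subunit of CAF-1 that deposits histones behind the fork, was the gene that passed. It measured 1.73 to 4.09 CPM in responders (median 3.11) and 5.06, 4.57, 7.39 and 5.59 CPM in non-responders. All responders were below all non-responders, and the mean fell from 5.65 ± 1.23 CPM (SD, n = 4) to 3.01 ± 0.81 CPM (SD, n = 6). The log2 fold change was -0.90 ± 0.23 (SE), edgeR adjusted p = 0.0334.

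The call on Chaf1a was a narrow one. It passed in 3 of the 10 fits that left out 1 library, with -1.01 to -0.75 over those fits. The edgeR adjusted p was 0.0580, 0.0815, 0.0527 and 0.0783 without responder replicates 1, 2, 3 and 5, and 0.0745, 0.0700 and 0.0549 without non-responder replicates 2, 3 and 4. Of its exon bases 18.7% are shared with Ubxn6, and over the unshared exons it gave -0.85 (edgeR adjusted p = 0.0631). With the title number as a covariate it gave -0.33 (edgeR adjusted p = 0.738). Its nearest neighbours in adjusted p were Rrm2 (0.0723), Mcm2 (0.0759) and Rfc5 (0.0811), by the same edgeR test. Chaf1b, the middle subunit of CAF-1, gave -0.46 ± 0.24 (SE), edgeR adjusted p = 0.253.

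Uhrf1, which brings the maintenance DNA methyltransferase to newly copied DNA, had the most negative log2 fold change and the widest fold range among the 39 genes with no responder at 0. It measured 0.363, 0.843, 4.61, 4.13, 0.972 and 7.35 CPM in responder replicates 1 to 6, a 20.2-fold range, and 7.46, 4.41, 15.6 and 5.96 CPM in non-responders. Responder replicates 3 and 6 reached the non-responder range (-1.45 ± 0.70 (SE), edgeR adjusted p = 0.211). Clspn, the claspin adaptor through which ATR activates Chk1 at stalled forks, followed the same libraries, with 0.161, 0.641, 2.52, 1.13, 0.216 and 2.23 CPM in responders and 1.51, 3.07, 5.08 and 2.75 CPM in non-responders. The groups overlapped (-1.41 ± 0.64 (SE), edgeR adjusted p = 0.185). Tipin, a fork protection protein that pairs with Timeless, gave -0.02 ± 0.18 (SE).

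The spread within the responder group was thus uneven between genes. The highest responder exceeded the lowest by a median of 2.17-fold over the 39 genes with no responder at 0, and by 20.2-fold for Uhrf1, 15.6-fold for Clspn, 7.77-fold for Mcm6, 7.08-fold for Orc1 and 5.65-fold for Mcm2. Few reads lie under some of these ratios. The lowest responder, replicate 1, had 0.161 CPM in Clspn and Orc1 and 0.363 CPM in Uhrf1, where 3 counts would be 0.121 CPM. Counting error can widen such ratios. Orc6 and Rfc5 had the smallest such ratios, 1.23 and 1.27. For Rfc5 this is the ratio of the deposited count, and 72.0% of its exon reads lie in the exon shared with Wsb2. Among the 4 non-responders the median ratio was 1.89-fold.

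The order of the genes by level per length also differed between groups. In responders Gins4, Tk1, Gmnn and Tipin followed Mcm10, at 8.58 ± 1.01, 5.65 ± 0.84, 4.45 ± 0.87 and 4.44 ± 0.76 CPM per kb (SD, n = 6), and the ranges of the last 3 within 1 SD overlapped. Orc1, Clspn and Cdc6 had the lowest levels, 0.134, 0.16 and 0.182 CPM per kb. In non-responders Gins4 came first at 8.21 CPM per kb, followed by Mcm2 at 5.46 and Mcm7 at 5.17 CPM per kb. Mcm2 stood at place 14 of 40 in responders and 2 in non-responders, Rrm2 at 22 and 11, and Uhrf1 at 33 and 24.

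The same libraries recurred at the ends of the range. Non-responder replicate 3 was the highest of the 10 treated libraries for 23 of the 40 genes, and responder replicate 1 the lowest for 21. The highest library was a non-responder for 34 genes and the lowest a responder for 30. Such counts were not made over all genes tested, so they cannot be read as particular to the replication genes. The median log2 ratio of a library to the mean of the treated libraries ran from -0.60 in responder replicate 1 to 0.60 in non-responder replicate 3.

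**Figure D4:**
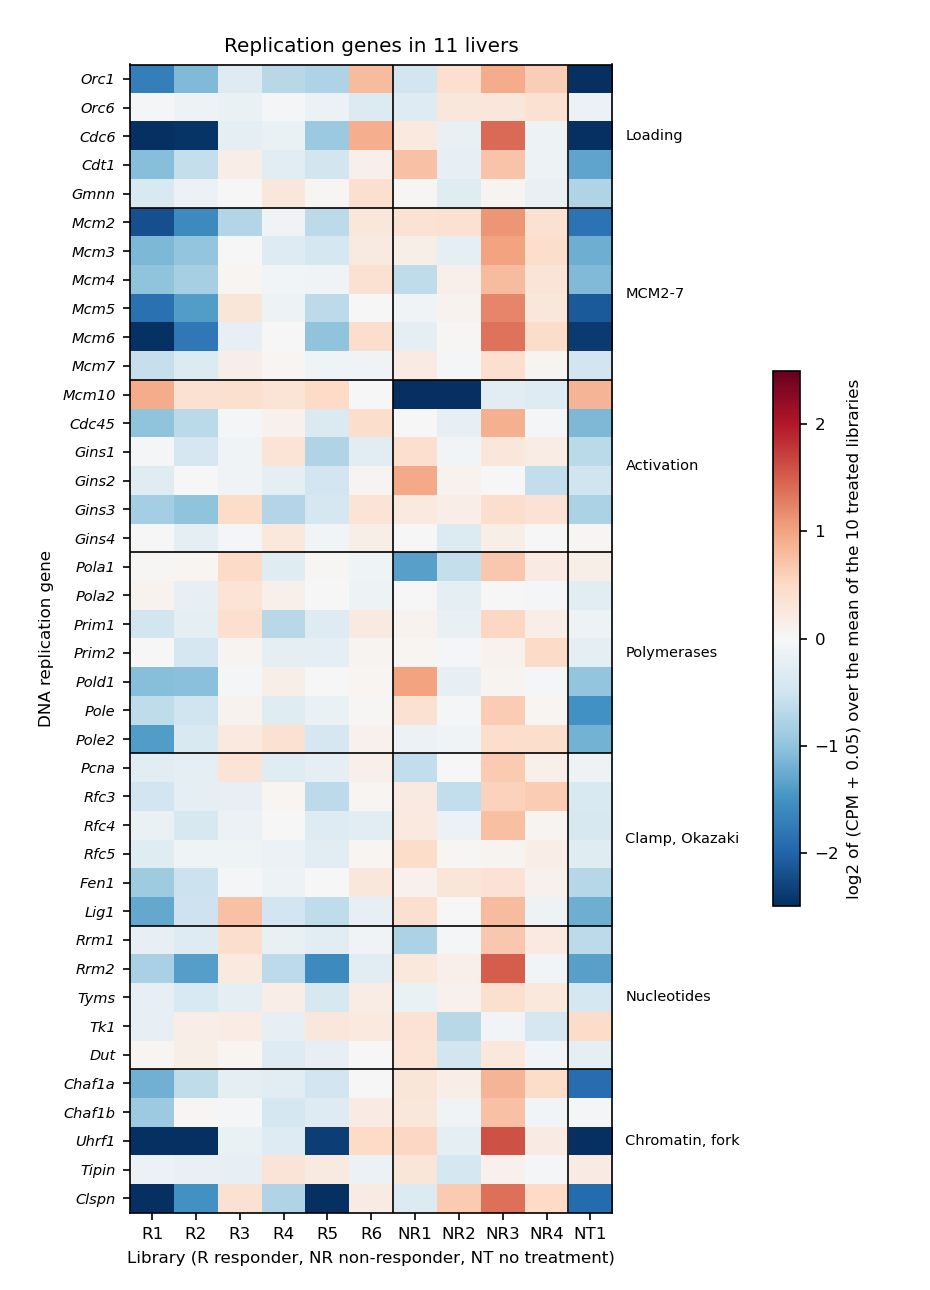
Level of each replication gene (rows, grouped by role) in each of the 11 libraries (columns), as log2 of CPM + 0.05 relative to the mean of the 10 treated libraries; blue is lower and red higher, and values beyond the colour bar take its end colour. Responder replicates 1 and 2 and the no-treatment liver (NT1) are blue in most rows, non-responder replicate 3 is red in most rows, and the row of Mcm10 runs the other way.

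Levels of other markers followed the order of these libraries only in part. Mki67, a marker of cycling cells, measured 2.46, 4.76, 33.8, 25.1, 1.86 and 19.2 CPM in responder replicates 1 to 6 and 17.1, 39.0, 36.3 and 34.7 CPM in non-responder replicates 1 to 4. Responder replicates 1, 2 and 5 were thus low in Mki67, and the same 3 were the lowest responders in the summed Mcm2 to Mcm7 level. Afp, the fetal liver and tumour marker, measured 1.73, 1.38, 2.28, 122, 2.13 and 99.8 CPM in responders and 116, 289, 198 and 381 CPM in non-responders. Responder replicate 3 was low in Afp and high in Mki67. That library also had the highest summed T cell and myeloid markers of the responders.

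T cell markers (10 of 10 found) summed to between 5.81 and 12.0 CPM in responders and between 7.60 and 15.4 CPM in non-responders, with non-responder replicate 3 highest. Myeloid markers (10 of 10) summed to between 129 and 372 CPM and between 87.7 and 291 CPM, and erythroid markers (10 of 10) to between 116 and 212 CPM and between 180 and 363 CPM. Of these, 0 of 10 tested T cell genes and 1 of 9 myeloid genes (Cd14) were called lower in responders. So were 3 of 9 erythroid genes (Hbb-bt, Slc4a1 and Hba-a2), against 5.82% of all genes tested. All 10 T cell genes had a log2 fold change below 0 (median -0.34), against 51.9% of all genes tested. Of the myeloid genes 3 were below 0 and 6 above, and of the erythroid genes 6 were below and 3 above. B and plasma cell markers (7 of 7) summed to between 169 and 206 CPM in responders and between 155 and 218 CPM in non-responders. Biliary markers (6 of 6) summed to between 30.7 and 43.2 CPM and between 37.5 and 81.3 CPM, and endothelial and stellate markers (10 of 10) to between 235 and 381 CPM and between 305 and 350 CPM. No marker was at 0 in every library. The part of immune, erythroid or other cells in the values of the replication genes was not tested.

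The no-treatment liver lay low for most of the machinery. It was below all 10 treated livers for 13 of the 40 genes (32.5%, background 7.98%) and above all of them for 1 (2.5%, Tk1, background 8.17%). It was below all 4 non-responders for 27 genes (67.5%, background 25.9%). The 13 genes included Mcm3, Mcm4 and Mcm5 (4.54, 3.81 and 2.29 CPM), Pole (2.58 CPM), Chaf1a (1.04 CPM), Cdt1 (1.84 CPM) and Gmnn (3.72 CPM). Orc1, another of them, had 0.0205 CPM there, less than the 3 counts that would be 0.0614 CPM. For 24 of the 40 genes, a count not made over all genes tested, the liver fell within the range of the responders. Mcm10, Mcm2 and Uhrf1 were among these (156, 3.34 and 0.593 CPM). The no-treatment liver is a single library, so no spread and no test can be given, and its Mki67 and Afp were 1.84 and 1.70 CPM.

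Genes with and without an E2F form in the promoter are set side by side here, with no test of the difference. The 13 with a match had a median log2 fold change of -0.64, with 12 below 0 and 0 called, and the 19 matched promoters without a form had -0.34, with 16 below 0 and 1 called. Chaf1a, Mcm2, Rrm2 and Uhrf1 were among those in which none of the 4 forms occurred in the window, which says nothing about binding elsewhere.

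Other genes of the pathway were grouped by role. Beside the share of all genes tested that was called lower (5.82%) or higher (4.11%), of 42 further replication genes 3 passed, all lower (7.14%, median -0.21). Pold4, the smallest subunit of polymerase delta, fell from 32.2 ± 17.2 CPM (SD, n = 4) to 10.01 ± 2.28 CPM (SD, n = 6), or -1.69 on the log2 scale (edgeR adjusted p = 0.0168). The other 2 were Mtbp, a partner of treslin in origin firing (-0.90, edgeR adjusted p = 0.0225), and Dbf4, which activates the Cdc7 kinase that fires origins (-1.12, edgeR adjusted p = 0.0365). Donson gave -0.40 and missed (edgeR adjusted p = 0.0532).

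Among 14 tested genes of nucleotide and folate metabolism (15 listed, median 0.07), 1 was lower and 1 higher (7.14% each). Mthfd2, the mitochondrial folate enzyme of proliferating cells, fell by 1.73 on the log2 scale (edgeR adjusted p = 0.0296), and its cytosolic relative Mthfd1 rose by 0.68 (edgeR adjusted p = 0.0256). Of 20 replication stress and repair genes 0 passed, although all 20 were below 0 (median -0.45, background 51.9%). At an unadjusted p under 0.05, 7 of them were lower (background 14.9%). Brca1, which acts in the repair of broken forks, gave -1.0 (edgeR adjusted p = 0.0992).

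Among 31 genes of S-phase control, 4 were lower (12.9%) and 1 was higher (3.23%), with a median of -0.19. Ccna2, the S and G2 cyclin, fell from 13.1 ± 1.16 CPM (SD, n = 4) to 5.26 ± 2.56 CPM (SD, n = 6), with a log2 fold change -1.32, edgeR adjusted p = 0.0278. The CDK inhibitors Cdkn1a, Cdkn1c and Cdkn2c fell as well, by 2.65, 0.93 and 1.0 on the log2 scale (edgeR adjusted p = 0.0319, 0.0324 and 0.0339). E2f8, a repressor of the E2F family, was the gene that rose (29.5 ± 9.5 CPM, SD, n = 6, against 11.6 ± 1.94 CPM, SD, n = 4, log2 fold change 1.34, edgeR adjusted p = 0.0149), and it passed in all 10 fits that left out 1 library. With the title number as a covariate, 0 of all genes tested were called higher, so E2f8 did not pass there. Exon 4 of E2f8 had 6.57 times its median exon density. The log2 ratio of group means was 1.46 over its earlier exons and 0.59 over its later ones. The activator E2f1 gave -0.20 ± 0.24 (SE) and Ccnd1 -0.57 ± 0.25 (SE), and neither passed.

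The mitosis list had the lowest median of the pathway lists given here (-1.18): 3 of 20 passed (15%), all lower, 12 had an unadjusted p under 0.05 and all 20 were below 0. Of all genes tested, 14.9% were lower at that unadjusted p and 51.9% were below 0. Plk1, a mitotic kinase, fell from 3.52 ± 0.73 CPM (SD, n = 4) to 0.91 ± 0.68 CPM (SD, n = 6), edgeR adjusted p = 0.0308. Every responder was below every non-responder for 6 of these 20 genes, 2 of the 40 replication genes and 5.66% of all genes tested. The difference between the lists was not tested.

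The calls outside the 40 genes depended on single libraries too. Of the 10 fits that left out 1 library, Pold4 passed in 9, Mtbp in 6, Dbf4 in 3, Mthfd1 in 6, Mthfd2 in 4, Ccna2 in 6, Cdkn1a, Cdkn1c and Cdkn2c in 4 each and Plk1 in 6. Among the marker genes, Hbb-bt passed in 9, Slc4a1 in 7, Apoa1 in 6, Cps1 and Serpina1a in 3 each, and Cd14 and Hba-a2 in 2 each. The highest edgeR adjusted p over those fits was 0.0624 for Pold4, 0.107 for Dbf4 and 0.148 for Cd14. With the title number as a covariate, 0 of all genes tested were called higher and 1 lower.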

How the data were processed

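Illumina TruSeq libraries were made from TRIzol-extracted RNA of 11 livers, as the labels' protocols state. The submitters' processing notes name FastQC and mm10; aligner, counter and strandedness: not given in the sources used here. Per the file headers, the authors deposited a raw count for each gene and each exon. Deposited RPKM values were not used in any result, and the listed gene length, another column of the deposited gene table, gave levels per kb. Libraries were grouped by the response label, and within a group no 2 libraries agreed within sampling noise (chi-square per degree of freedom at least 25.7).

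Responders (6) and non-responders (4) were tested against each other by edgeR 4.0.16 under R 4.3.3 (filterByExpr, TMM, robust quasi-likelihood F test, Benjamini-Hochberg over 17610 genes, threshold 0.05). SE is the size of the log2 fold change divided by the root of F. CPM uses TMM over the tested genes. Exon values use 1 transcript per gene, and exon counts of a gene can sum to more than its gene count. Floors are 3 counts, and counting error is all they cover.

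All 40 members were open to naming. Of each other list, up to 4 genes with the smallest p were named, plus Mki67, Afp, Ccnd1, Cdkn1a and E2f1, and any gene past the threshold where it was counted. Cdkn2c was outside the rule and was added after its value was seen. Some genes that the rule took are left out of the text. The members and the lists were chosen with earlier results of these data known. Alternatives were 3 other scalings, 2 filters, DESeq2 1.42.0, limma-voom with quality weights (limma 3.58.1), the no-treatment library in the fit, the title number as a covariate, a threshold of 0.1 and each library left out. Counting over exons was added after seeing the data. The edgeR step was tested on simulated data, with each gene drawn on its own, where it called 4 of 17143 unchanged genes.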

Additional observations from a re-analysis of the deposited data

Results flagged for a closer look

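Dixon's ratio was checked in the 6 responders and the 4 non-responders for each of the 40 genes, 80 groups in all, and 9 values stood apart from their group. The cut-offs flag about 1 in 20 groups by chance only where values are normally distributed and groups independent. CPM values of genes measured in the same libraries need not be either, so the number flagged cannot be set against that rate. Non-responder replicate 3 was high in Cdc6 (3.64 CPM, next 1.59), Mcm2 (26.2 CPM, next 15.9), Cdc45 (4.21 CPM, next 2.25) and Rrm2 (19.7 CPM, next 8.27). Responder replicate 3 was high in Lig1 (10.6 CPM, next 5.46) and Rrm1 (18.6 CPM, next 13). Responder replicate 6 was high in Orc1 (1.14 CPM, next 0.499). Non-responder replicate 1 was high in Pold1 (10.04 CPM, next 5.18), and non-responder replicate 2 was low in Pola2 (7.62 CPM, next 8.91).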

How the results depend on the processing

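No paired analysis was possible because the labels give no replicate numbers that the groups share. Under the 3 other scalings the count of members called (1 lower) did not change and 0 members changed direction. Members called lower numbered 4 with DESeq2 (Mcm2, Rfc5, Rrm2 and Chaf1a), 13 with limma-voom with quality weights, which also called 1 higher (Tk1), 5 at a threshold of 0.1, 0 with the covariate of title numbers, 0 over unshared exons and 0 to 3 with 1 library left out. Over all genes tested, 1396 were higher and 1661 lower with DESeq2, 1611 and 2012 with limma-voom, 1372 and 1808 at a threshold of 0.1, 0 and 1 with the title number, and 38 to 836 and 41 to 1158 with 1 library left out, fewest without non-responder replicate 2.

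The median of the members was 0.0084 with the title number, and there the log2 fold change changed direction for Orc1 (0.50), Cdc6 (0.76), Mcm2 (0.0014), Mcm3 (0.015), Mcm4 (0.52), Mcm5 (0.0070), Mcm6 (0.42), Cdc45 (0.32), Gins3 (0.083), Pole2 (0.32), Pcna (0.12), Fen1 (0.19), Rrm1 (0.0097), Tyms (0.068), Uhrf1 (0.026), Tipin (0.036), E2f1 (0.24), Afp (0.76), Clec4f (-0.064) and Lyz2 (-0.26). It also did so with limma-voom for Gins2 (0.10), Gins4 (-0.047), Pola1 (-0.15) and Igj (-0.094), without a filter for Tipin (0.0082), and over exons for Mcm10 (-0.37 in both ways of counting) and Rfc5 (0.17). With 1 library left out, values crossed 0 for Tipin (-0.13 to 0.096), Pola1 (-0.13 to 0.50), Dut (-0.20 to 0.029), Gins4 (-0.018 to 0.13), Pcna (-0.35 to 0.070), Rrm1 (-0.40 to 0.051), Lyz2 (-0.034 to 0.46) and Clec4f (-0.022 to 0.46). The causes were not tested. Few reads lie behind Orc1 (99 in all responders and 133 in all non-responders), Gins3 (225 and 228) and Cdc6 (202 and 277).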
